A study of Homo sapiens with 12 samples.

Results

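The comparison described here is that of HepG2 cells given 8HQ and FAC together (8HQ/FAC) with HepG2 cells given the vehicle DMSO, 3 libraries each, over all genes that reached 1 FPKM in at least 3 of the 12 libraries of the series. FPKM is a level normalized by the authors for transcript length and sequencing depth. Of 20030 genes listed, 10823 met this rule. HepG2 is an established line from a human liver tumour, so each group is 1 line grown in culture and not liver tissue. The other 6 libraries, 3 with 8HQ alone and 3 with FAC alone, entered the estimate of the spread and are set beside the result. All groups were labelled 10 µM and 6 h. The labels do not say to which agent the 10 µM applies, and they spell out neither abbreviation. By common usage 8HQ is 8-hydroxyquinoline, a metal chelator that can carry iron across membranes, and FAC is the iron salt ferric ammonium citrate. Since separate cultures are not stated for the libraries, p-values measure only how these samples spread, and that spread may be technical.

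Hepatocytes hold much of the iron of the body and make hepcidin, the hormone encoded by HAMP that closes the iron exporter ferroportin. Iron is also the cofactor of the oxygen-dependent dioxygenases, among them the prolyl hydroxylases that mark the hypoxia-inducible factors (HIF) for destruction and the demethylases that act on histones and DNA. Cells under sudden stress or growth factor stimulation switch on immediate early genes, which encode short-lived transcription factors such as FOS and JUN and are transcribed without new protein synthesis.

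The promoters of the strongest responders are shown first because a TATA box, the element that positions the start of transcription, was common among them. The sequences are from RefSeq (GRCh38.p14), run 5′ to 3′ on the strand of the gene, and cover 60 bases before the annotated start and 10 from it on, with the TATA box in capitals. FOS lay at chr14:75278768-75278837 (+ strand), FOSB at chr19:45467936-45468005 (+ strand), GADD45B at chr19:2476067-2476136 (+ strand) and ADM at chr11:10305013-10305082 (+ strand); these 4 genes rose. CYP1A1 lay at chr15:74725519-74725588 (- strand), DKK1 at chr10:52314221-52314290 (+ strand) and FOXA3 at chr19:45864266-45864335 (+ strand); these 3 genes fell. With the start counted as 0, the first base of the box was at -33 in FOS, -30 in FOSB, -31 in GADD45B, -27 in ADM, -32 in CYP1A1, -30 in DKK1 and -30 in FOXA3. These promoters were chosen for a box in this place, so the shared position is not a result.
FOS: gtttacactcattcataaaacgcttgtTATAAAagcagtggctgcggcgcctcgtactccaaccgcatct
FOSB: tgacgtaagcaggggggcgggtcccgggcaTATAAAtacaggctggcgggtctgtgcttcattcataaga
GADD45B: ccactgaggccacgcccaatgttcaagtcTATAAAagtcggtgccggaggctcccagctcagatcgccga
ADM: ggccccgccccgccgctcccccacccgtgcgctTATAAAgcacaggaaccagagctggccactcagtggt
CYP1A1: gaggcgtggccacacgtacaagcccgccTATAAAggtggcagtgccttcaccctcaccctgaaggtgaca
DKK1: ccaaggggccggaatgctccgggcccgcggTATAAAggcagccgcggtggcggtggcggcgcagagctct
FOXA3: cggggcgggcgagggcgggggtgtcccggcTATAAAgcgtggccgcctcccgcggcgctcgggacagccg

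The HAMP promoter, with 250 bases before the start and 10 from it on, at chr19:35282278-35282537 (+ strand), is shown with the core of a bone morphogenetic protein (BMP) response element in capitals. That element is known as the site through which BMP signalling reaches hepcidin. These 6 letters, GGCGCC, began at -105 and were present, on either strand, in 31.5% of the 8950 promoters of tested genes.
HAMP: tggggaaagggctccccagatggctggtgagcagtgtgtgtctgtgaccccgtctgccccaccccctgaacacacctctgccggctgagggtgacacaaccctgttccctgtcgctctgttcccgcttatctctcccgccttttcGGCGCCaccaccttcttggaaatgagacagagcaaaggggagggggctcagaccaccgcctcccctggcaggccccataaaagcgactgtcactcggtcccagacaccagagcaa

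Expression moved almost throughout. By limma with Benjamini-Hochberg adjustment, 2979 genes (27.5%) were higher in 8HQ/FAC and 6142 (56.7%) were lower at an adjusted p under 0.05, and the 3 libraries of one group did not overlap with those of the other in 9115 genes (84.2%). With 84.3% of all genes called, a call says little, so genes and lists are described below by the calls that were also at least 2-fold. These were 240 higher genes (2.22%) and 1096 lower ones (10.1%), or 12.3% in either direction. All counts of 2-fold changes, here and below, are on the log2(FPKM + 1) scale. That scale understates the change of genes at low levels, most of all near or under 1 FPKM. Some genes whose printed FPKM differ slightly more than 2-fold are therefore not counted. The rises were fewer and larger: 33 of them passed 4-fold and 13 passed 8-fold, against 20 and 2 of the falls.

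The balance of rises and falls depended on how the libraries were scaled. The summed FPKM was 419275 to 427192 in 8HQ/FAC and 335508 to 339828 in DMSO, and the median log2 change of all tested genes was -0.23. Genes at least 2-fold higher and lower numbered 342 and 377 after quantile normalization, 937 and 245 after centring each library on its median, 124 and 2190 after rescaling to equal sums, and 328 and 345 after removal of the trend on transcript length. Of the 240 rises and 1096 falls, 106 (0.979%) and 175 (1.62%) stayed at least 2-fold under every one. Long transcripts fell more. The median log2 change was 0.22 in the shortest of 4 equal length groups of genes, -0.16 and -0.34 in the next ones and -0.61 in the longest, and the share at least 2-fold lower went from 3.37% to 20.5%. For the lists below, the median is given relative to that of all genes, with the range of this difference over the 5 scalings.

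**Figure D1:**
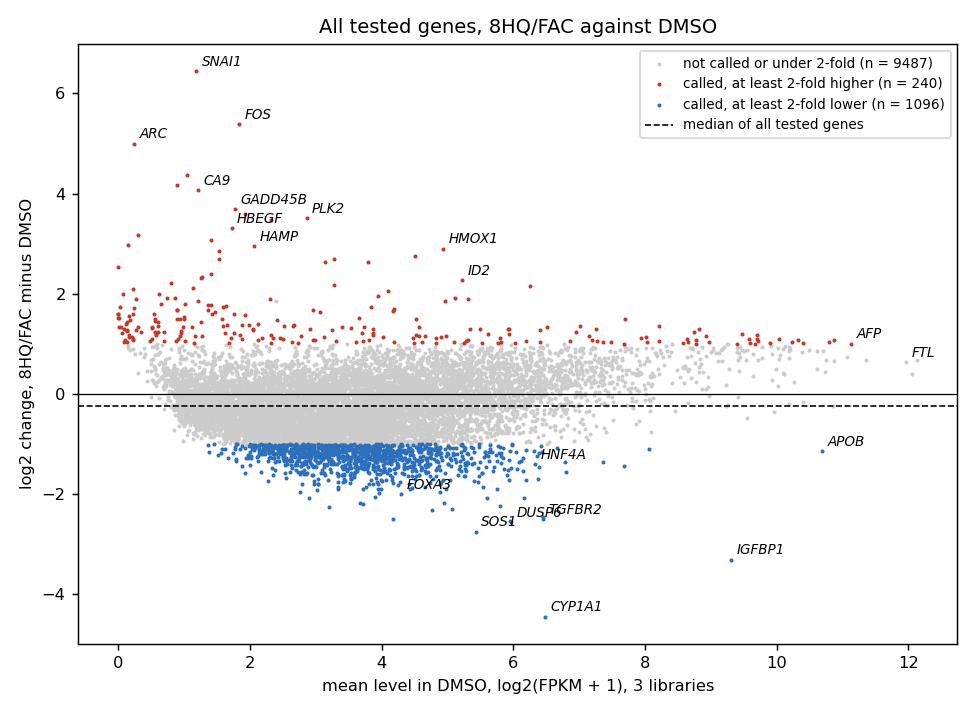
Log2 change in 8HQ/FAC against DMSO (vertical axis) plotted against the mean level in DMSO, as log2(FPKM + 1) (horizontal axis), 1 point per tested gene. The 240 genes at least 2-fold higher (red) reach a log2 change of 6.44, while the 1096 at least 2-fold lower (blue) lie mostly close to the threshold; the dashed line is the median of all genes at -0.23.

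The 3 largest rises were those of SNAI1, FOS and ARC. SNAI1, a zinc finger repressor of epithelial genes, measured 1.33, 1.03 and 1.45 FPKM in the 3 DMSO libraries and 194, 211 and 184 FPKM in the 3 8HQ/FAC libraries, a log2 change of 6.44 ± 0.10 (SE) with an adjusted p of 3.4e-16. FOS, which pairs with JUN proteins in the AP-1 factor, measured 2.52, 2.92 and 2.25 FPKM in DMSO and 148, 154 and 142 FPKM in 8HQ/FAC, a log2 change of 5.39 ± 0.11 (SE) with an adjusted p of 4.8e-15. ARC, an immediate early gene best known in neurons, was at 0.25, 0.0936 and 0.197 FPKM in DMSO and at 33.5, 41.2 and 35.6 FPKM in 8HQ/FAC, with a log2 change of 5.0 ± 0.08 (SE). All 3 genes were close to silent in every DMSO library and among the clearly expressed genes in every 8HQ/FAC library, with no overlap. RRAD, a small GTPase of the RAS family, rose from 1.05 to 41.7 FPKM, FOSB from 0.864 to 32.7 FPKM, GADD45B from 2.42 to 43 FPKM, IER5L from 2.78 to 44.8 FPKM and the kinase gene PLK2 from 6.27 to 81.8 FPKM, each as a mean of 3.

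Within the AP-1 family the response was divided. Of 14 AP-1 and MAF genes tested, 8 were higher, 6 of them at least 2-fold (42.9% against 2.22% of all genes), and 6 were lower, none of them 2-fold; the median was 0.86 above that of all genes, with a range of 0.51 to 0.86. ATF3, a stress-induced repressor, rose from 7.79 to 53.7 FPKM and JUNB, a partner of FOS, from 14.4 to 58.8 FPKM, with log2 changes of 2.64 ± 0.07 (SE) and 1.96 ± 0.09 (SE). Of 17 other early response genes, 12 were higher and 5 lower, with a median of 0.58 relative to all genes (range 0.58 to 0.73), 4 at least 2-fold higher (ARC, GADD45B, IER5L and IER5) and 2 at least 2-fold lower (SRF and PHLDA1). IER5, induced by growth factors and heat, measured 7.61, 6.1 and 6.49 FPKM in DMSO and 23.7, 23 and 24.4 FPKM in 8HQ/FAC, and its groups did not overlap. EGR1, the classical serum-induced zinc finger factor, was chosen after its values were seen. It rose from 21.6 to 42.2 FPKM (log2 change 0.93 ± 0.05 (SE)), far less than FOS or ARC.

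The Krüppel-like factors, zinc finger regulators of growth and metabolism, moved in both directions, with 4 falls and 1 rise of at least 2-fold. Of 10 tested, 4 were higher and 6 lower, and 4 were at least 2-fold lower (40.0% against 10.1% of all genes). The exception past 2-fold was KLF4, from 0.27 to 2.0 FPKM. KLF3 measured 20.5, 20.9 and 21.1 FPKM in DMSO and 7.01, 6.71 and 7.26 FPKM in 8HQ/FAC, a log2 change of -1.45 ± 0.04 (SE) with an adjusted p of 3.0e-14. KLF6 fell from 32.3 to 11.3 FPKM, KLF13 from 10.3 to 3.35 FPKM and KLF15 from 4.67 to 1.38 FPKM. The list had a median of -0.37 relative to all genes (range -0.37 to -0.23).

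The junction genes that SNAI1 is known to act on moved in both directions at 6 h. Of 23 genes in a list of SNAI1 and epithelial junction genes, 6 were higher and 14 lower, and the median differed from that of all genes by -0.01, with a range of -0.11 to 0.07 that crosses 0. TJP1, a scaffold of the tight junction, fell from 15.2 to 5.02 FPKM (log2 change -1.42 ± 0.04 (SE)), and OCLN, occludin, fell from 5.39 to 1.82 FPKM. CLDN6, a claudin of embryonic epithelia, rose from 13.6 to 32.2 FPKM. CDH1, which encodes E-cadherin and was looked up after its values were seen, measured 5.38, 5.11 and 5.08 FPKM in DMSO and 5.15, 4.28 and 4.64 FPKM in 8HQ/FAC, overlapping groups with an adjusted p of 0.089 and a sign that depended on the scaling.

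**Figure D2:**
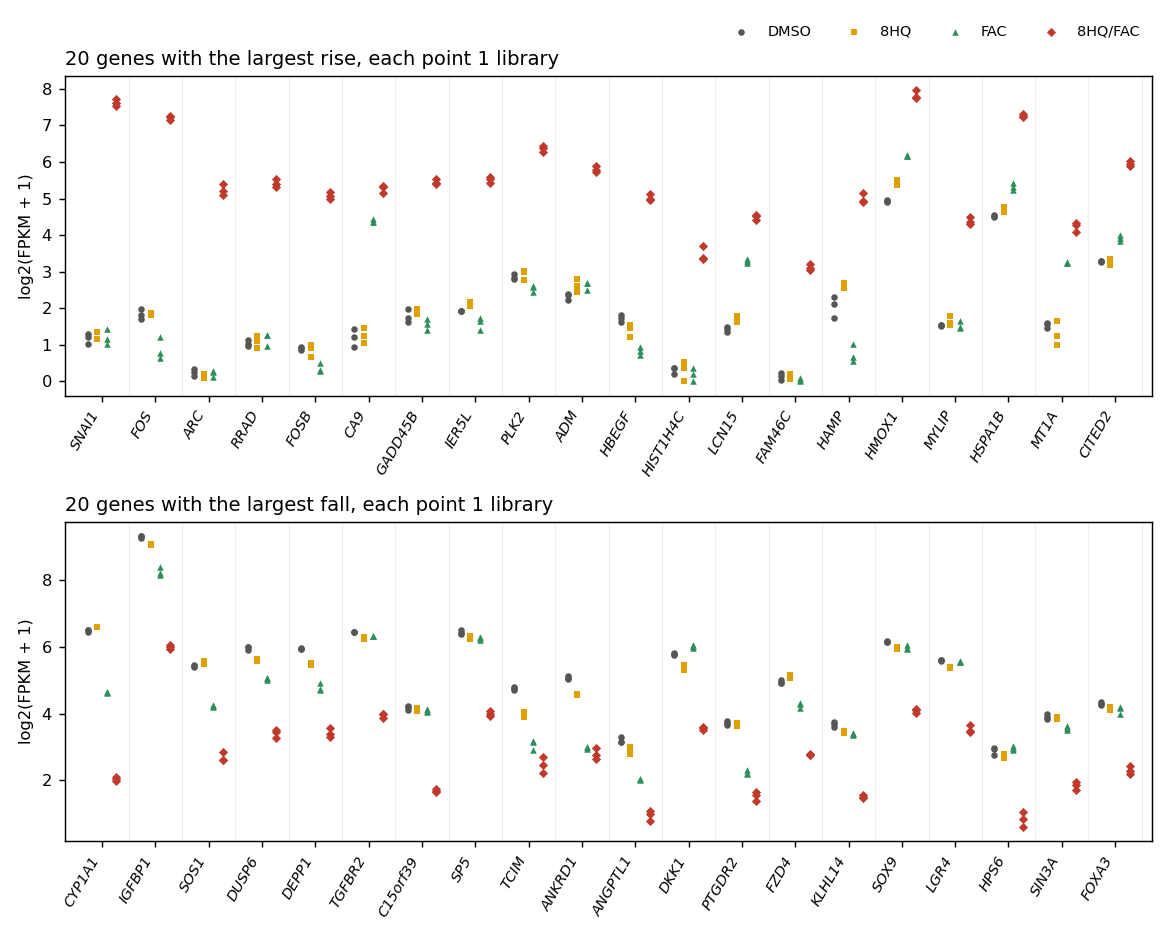
Level of the 20 genes with the largest rise (top) and the 20 with the largest fall (bottom) in every library, as log2(FPKM + 1), 1 point per library and 1 colour per group. The 3 libraries of each group lie close together, and in all 40 genes the 8HQ/FAC libraries (red) stand clear of the DMSO libraries (grey); the FAC libraries (green) lie between them for CA9, LCN15, HMOX1, MT1A, CYP1A1 and IGFBP1 but under both for FOS, HBEGF and HAMP.

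Among EGF receptor and ligand genes, 1 ligand gene rose strongly. HBEGF, a ligand of the EGF receptor that is itself an early response gene, measured 2.3, 2.08 and 2.51 FPKM in DMSO and 30.9, 34 and 30.1 FPKM in 8HQ/FAC, with a log2 change of 3.31 ± 0.09 (SE). It was the one rise of at least 2-fold among the 7 EGF receptor and ligand genes tested, of which 2 were higher and 5 lower, with 3 falls of at least 2-fold (42.9% against 10.1%) and a median of -0.16 relative to all genes (range -0.18 to -0.05). The receptor gene ERBB3 fell from 85.6 to 37.9 FPKM, the ligand gene AREG from 19.3 to 8.11 FPKM and ERRFI1, an intracellular inhibitor of the receptor, from 47.1 to 19.6 FPKM.

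The regulators and feedback inhibitors of the RAS-ERK cascade formed one of the most uniform lists. Of 17 tested, 16 were lower, 11 of them at least 2-fold (64.7% against 10.1%), and 1 was higher, DUSP1, the phosphatase gene that stress induces, from 14.7 to 29.7 FPKM. SOS1, the exchange factor that loads RAS with GTP, measured 42.1, 42.8 and 41.7 FPKM in DMSO and 5.14, 5.09 and 6.13 FPKM in 8HQ/FAC, a log2 change of -2.75 ± 0.05 (SE) with an adjusted p of 2.8e-15. DUSP6, the phosphatase that removes the activating phosphates of ERK, measured 63.2, 63.4 and 58.8 FPKM in DMSO and 8.68, 10.3 and 9.9 FPKM in 8HQ/FAC, a log2 change of -2.56 ± 0.05 (SE). Neither gene had overlapping groups. The inhibitors SPRY1 and SPRED2 fell from 10.9 to 2.77 FPKM and from 25.6 to 7.54 FPKM. The median of the list lay at -0.89 relative to all genes, with a range of -0.90 to -0.77 over the scalings.

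Most listed genes of the WNT pathway had lower transcript levels, inhibitors among them, and the activity of the pathway was not measured. HepG2 cells carry an activated beta-catenin, the effector of WNT signalling, so many WNT targets are expressed in them without added ligand. Of 19 receptor, regulator and target genes, 18 were lower, 12 at least 2-fold (63.2% against 10.1%), and 1 was higher, NOTUM, an enzyme that inactivates WNT proteins, from 275 to 369 FPKM. SP5, a direct target and repressor in the pathway, measured 83.8, 90.3 and 85.1 FPKM in DMSO and 14.2, 15.8 and 14.8 FPKM in 8HQ/FAC, with a log2 change of -2.45 ± 0.04 (SE). DKK1, a secreted WNT antagonist, measured 55.4, 53.7 and 54.1 FPKM in DMSO and 10.5, 10.8 and 11 FPKM in 8HQ/FAC, with a log2 change of -2.24 ± 0.04 (SE). The R-spondin receptor gene LGR4 fell from 47.6 to 10.6 FPKM, and the WNT receptor genes FZD4 and FZD5 fell from 29.9 to 5.85 FPKM and from 28.6 to 6.63 FPKM. For all 5 genes the highest 8HQ/FAC library lay under the lowest DMSO library. The median of the list was -0.93 relative to all genes, with a range of -0.96 to -0.60; its median transcript length of 5206 bases exceeds the 3613 bases of all tested genes, and removal of the length trend gave the smallest of these differences.

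The receptor that binds TGF-beta fell more than any SMAD gene. TGFBR2 measured 86.3, 86.1 and 86.4 FPKM in DMSO and 13.6, 14.8 and 15 FPKM in 8HQ/FAC, a log2 change of -2.50 ± 0.03 (SE) with an adjusted p of 1.8e-16. Of 14 TGF-beta receptor, SMAD and related genes, 11 were lower, 6 of them at least 2-fold (42.9% against 10.1%), and 2 were higher. The co-repressor genes TGIF1 and SKI fell from 9.91 to 3.87 FPKM and from 11 to 4.58 FPKM. The median was -0.58 relative to all genes, with a range of -0.59 to -0.25.

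HAMP rose, while the median of its pathway list lay close to that of all genes. It measured 3.95, 3.29 and 2.34 FPKM in DMSO and 29.7, 29 and 34.4 FPKM in 8HQ/FAC, a log2 change of 2.95 ± 0.13 (SE) with an adjusted p of 8.1e-12, and the groups did not overlap. The list held 20 tested genes for BMP ligands, receptors, SMADs, their inhibitor of differentiation (ID) targets and the hepcidin regulators. Of these, 6 were higher and 13 lower, with a median of -0.10 relative to all genes (range -0.16 to -0.10). The only rises of 2-fold were HAMP and ID2 (10.0% against 2.22% of all genes), and both stayed so under every scaling. The only falls of 2-fold were BMP4 and BMPR1A (10.0%, close to the 10.1% of all genes). ID2, which blocks basic helix-loop-helix factors, measured 36.4, 37.9 and 34.8 FPKM in DMSO and 179.5, 189 and 169 FPKM in 8HQ/FAC. The ligand gene BMP4 fell from 59.5 to 20.2 FPKM and the receptor gene BMPR1A from 8.23 to 3.13 FPKM. ID1, a standard readout of BMP signalling in hepatocytes that was looked up after its values were seen, was at 42.4, 43.6 and 41.1 FPKM in DMSO and 35.9, 37.5 and 34.4 FPKM in 8HQ/FAC. Its log2 change of -0.23 ± 0.04 (SE) is close to the median of all genes and turned to 0.18 after median centring.

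Insulin and FOXO outputs changed strongly in both directions. IGFBP1, a secreted binding protein for insulin-like growth factors that insulin represses, measured 641, 613 and 644 FPKM in DMSO and 63.6, 59.95 and 65.9 FPKM in 8HQ/FAC, a log2 change of -3.31 ± 0.05 (SE) with an adjusted p of 3.4e-16. DEPP1, a FOXO target, measured 61.1, 60.8 and 61.1 FPKM in DMSO and 8.88, 9.38 and 10.9 FPKM in 8HQ/FAC. IRS1, the docking protein of the insulin receptor, fell from 7.17 to 1.53 FPKM. CITED2, which binds the coactivator CBP and restrains HIF, measured 8.72, 8.84 and 8.56 FPKM in DMSO and 61.1, 64.7 and 58.7 FPKM in 8HQ/FAC, a log2 change of 2.69 ± 0.05 (SE). Of the 21 genes, 14 were lower and 7 higher, with 9 falls (42.9% against 10.1%) and 4 rises (19.05% against 2.22%) of at least 2-fold and a median of -0.48 relative to all genes (range -0.50 to -0.39).

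All liver-identity factors were lower. These are the transcription factors that set up and maintain hepatocyte expression, and 20 of 20 were called lower, 8 of them at least 2-fold (40.0% against 10.1%), with a median of -0.69 relative to all genes and a range of -0.81 to -0.58. FOXA3, a pioneer factor of liver enhancers, measured 18.6, 19.3 and 18.2 FPKM in DMSO and 3.53, 3.83 and 4.41 FPKM in 8HQ/FAC, a log2 change of -2.0 ± 0.06 (SE) with an adjusted p of 3.0e-13. HNF4A, the nuclear receptor at the centre of the hepatocyte network, measured 78.5, 78.8 and 81.3 FPKM in DMSO and 30.1, 28.8 and 29.5 FPKM in 8HQ/FAC, a log2 change of -1.40 ± 0.03 (SE). PROX1 fell from 18.3 to 4.77 FPKM and NR0B2, the bile acid-induced receptor that represses bile acid synthesis, from 52.7 to 13.3 FPKM. For each of these 4 genes the groups were far apart. Among 26 nuclear receptor genes, 23 were lower, 7 at least 2-fold, and 2 higher, with a median of -0.30 relative to all genes (range -0.36 to -0.27), and the glucocorticoid receptor gene NR3C1 fell from 3.4 to 0.919 FPKM.

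Hepatocyte products were divided. Of 15 hepatocyte and hepatoma markers, 11 were higher and 4 lower. All 15 were above 0 in each library, so the line expressed its liver programme in both groups. The falls of at least 2-fold included HNF4A and APOB, the structural protein of low density lipoprotein, which went from 1660.1 to 755 FPKM. The rises of at least 2-fold were AFP, the fetal albumin, from 2249 to 4508 FPKM, and TF, the plasma iron carrier transferrin, which measured 833, 827 and 828 FPKM in DMSO and 1916, 1867 and 1881 FPKM in 8HQ/FAC. The median of the list was 0.77 above all genes as deposited but -0.12 after quantile normalization, so the direction of the list depends on the scaling. Of 18 apolipoprotein and lipoprotein genes, 11 were higher and 4 lower, with a median of 0.62 relative to all genes (range -0.10 to 0.62). Of 19 coagulation genes, 10 were higher and 4 lower, with a median of 0.34 relative to all genes (range 0.05 to 0.34), and PLG, plasminogen, rose from 1.01 to 5.94 FPKM, the only change of 2-fold.

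Drug-metabolizing cytochrome P450 genes were lower or not called. CYP1A1, the target of the aryl hydrocarbon receptor that oxidizes aromatic compounds, had the largest fall of all genes, with 85.8, 90.1 and 89.7 FPKM in DMSO and 2.97, 3.08 and 3.31 FPKM in 8HQ/FAC, a log2 change of -4.44 ± 0.04 (SE) and an adjusted p of 1.7e-19. The receptor gene AHR fell from 17.7 to 5.75 FPKM and its partner ARNT from 8.6 to 4.27 FPKM. TIPARP, a repressor of the receptor, was 5.48, 5.49 and 5.35 FPKM in DMSO and 4.31, 4.73 and 4.56 FPKM in 8HQ/FAC, and its sign turned positive under 3 of the 4 scalings. Of 17 other P450 genes, 12 were lower and 0 higher, with a median of -0.22 relative to all genes and a range of -0.37 to -0.17. The vitamin D hydroxylase gene CYP24A1 fell from 7.63 to 2.54 FPKM.

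**Figure D3:**
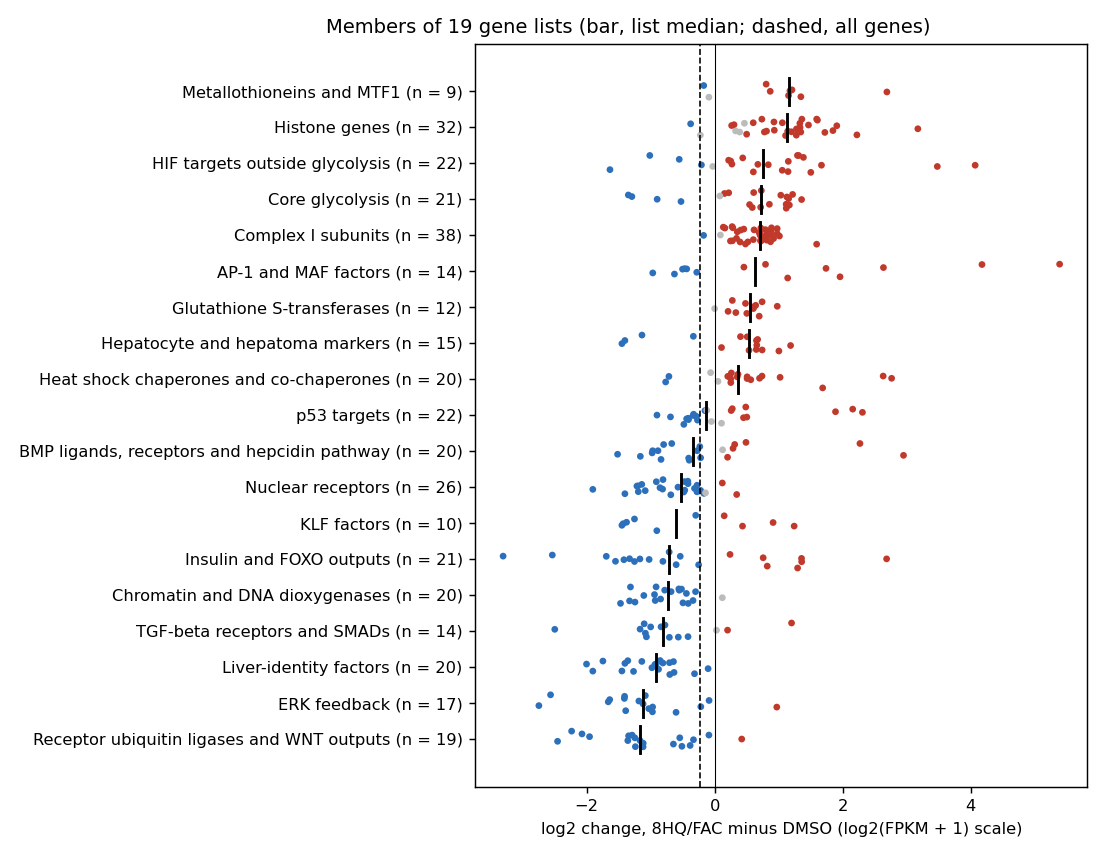
Log2 change in 8HQ/FAC against DMSO for each member of 19 gene lists (1 point per gene; red higher, blue lower, grey not called), with the list median as a bar and the median of all genes, -0.23, as a dashed line. The medians run from 1.15 for the metallothioneins to -1.17 for the WNT list, and single genes such as FOS, CA9 and HAMP lie far from the median of their own list.

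Metallothioneins, the small cysteine-rich proteins that bind zinc and copper, rose. Of 9 tested genes of a list that also holds their regulator MTF1 and the zinc exporter SLC30A1, 7 were higher, 5 at least 2-fold (55.6% against 2.22%), and the 7 higher genes were the 7 metallothioneins. MT1A measured 2.0, 1.95 and 1.73 FPKM in DMSO and 19.1, 18.2 and 15.8 FPKM in 8HQ/FAC, a log2 change of 2.69 ± 0.12 (SE). MT1G rose from 22.7 to 59.2 FPKM and MT1F from 12 to 29.2 FPKM. MT1M was at 0.12, 0.251 and 0 FPKM in DMSO and 1.71, 0.746 and 2.42 FPKM in 8HQ/FAC, with the widest spread of the family. The transcripts are short and near-identical to each other, so reads may have been divided among copies, and the median of 1.39 above all genes was 0.63 once the length trend was removed.

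Genes of the response to low oxygen were higher, with marked exceptions. CA9, a carbonic anhydrase of the cell surface and a sensitive HIF target, measured 1.32, 0.922 and 1.7 FPKM in DMSO and 39.9, 34.2 and 38.6 FPKM in 8HQ/FAC, a log2 change of 4.07 ± 0.11 (SE) with an adjusted p of 5.0e-14. ADM, the vasodilator peptide adrenomedullin, measured 4.25, 4.13 and 3.62 FPKM in DMSO and 51.9, 57.8 and 54.4 FPKM in 8HQ/FAC, a log2 change of 3.48 ± 0.08 (SE). Of 22 HIF targets outside glycolysis, 17 were higher, 10 of them at least 2-fold (45.5% against 2.22%), and the median of 0.99 above all genes hardly depended on the scaling, with a range of 0.95 to 1.0. PFKFB3, which makes the activator of glycolysis, rose from 0.865 to 4.93 FPKM. INSIG2, which retains the sterol regulator SREBP in the endoplasmic reticulum, fell from 43.5 to 13.3 FPKM, the largest fall of the list.

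Most glycolytic enzyme genes rose, while the hexokinase gene HK2 fell. Of 21 tested genes, 16 were higher, 8 of them at least 2-fold (38.1% against 2.22% of all genes). The other called genes, 4, were lower, 2 of them at least 2-fold (9.52%, close to the 10.1% of all genes). None of the 8 rises stayed at least 2-fold under every scaling. The median was 0.95 above all genes, with a range of 0.47 to 0.95. The aldolase gene ALDOA measured 288, 297 and 299.7 FPKM in DMSO and 765, 759 and 749 FPKM in 8HQ/FAC, a log2 change of 1.36 ± 0.02 (SE) with an adjusted p of 8.3e-16. ALDOC rose from 13.6 to 32.9 FPKM. The hexokinase gene HK2, for the enzyme that phosphorylates glucose on entry, fell from 28 to 10.4 FPKM.

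The iron- and oxygen-dependent demethylases were lower almost throughout. Of 20 tested genes, 19 were lower, none higher, and 5 at least 2-fold lower (25.0% against 10.1%). The histone demethylase genes KDM4A, KDM5A, PHF8 and KDM6A fell from 15.5 to 4.93 FPKM, from 8.47 to 2.77 FPKM, from 11.6 to 4.09 FPKM and from 8.21 to 2.89 FPKM. Their transcripts are long, with a list median of 6763 bases, and the median relative to all genes was -0.50 as deposited and -0.22 once the length trend was removed.

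Of 19 genes for iron uptake, storage and export, 6 were higher and 11 lower, with a median of -0.04 relative to all genes (range -0.25 to 0.02), so its direction depends on the scaling. The changes of at least 2-fold were rises of TF, above, and LCN2, a lipocalin that binds iron through siderophores, from 17 to 55.7 FPKM, and a fall of IREB2, the iron regulatory protein that binds ferritin and transferrin receptor transcripts, from 13.2 to 4.96 FPKM. SLC25A28, a mitochondrial iron importer, fell from 5.62 to 2.73 FPKM. The transferrin receptor gene TFRC was at 65, 63.8 and 66.6 FPKM in DMSO and 47.5, 47.5 and 46.6 FPKM in 8HQ/FAC, a log2 change of -0.46 ± 0.04 (SE) that was -0.04 after median centring and -0.03 after the length correction. The ferritin gene FTH1 rose from 1729.8 to 2772 FPKM but changed by -0.08 after quantile normalization, FTL rose from 3994 to 6222 FPKM, and the exporter gene SLC40A1 fell from 24.3 to 13.7 FPKM.

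Oxidative stress genes moved unevenly. HMOX1, the heme-degrading oxygenase, measured 30.02, 29.7 and 28.9 FPKM in DMSO and 216, 217 and 248 FPKM in 8HQ/FAC, a log2 change of 2.90 ± 0.05 (SE) with an adjusted p of 9.5e-16. Of 24 other targets and regulators of NRF2, the main antioxidant factor, 13 were higher and 7 lower, with a median of 0.41 relative to all genes (range 0.03 to 0.41), and the NRF2 gene NFE2L2 itself fell from 109 to 41.8 FPKM. GCLM, of glutathione synthesis, rose from 6.52 to 13.5 FPKM, and KEAP1, the inhibitor of NRF2, fell from 31.2 to 15.3 FPKM. Of 12 glutathione S-transferase genes, 11 were higher and 0 lower, none of them 2-fold, with a median 0.79 above all genes and a range of 0.54 to 0.79. GSTM3 came nearest on the log2(FPKM + 1) scale, from 8.55 to 17.8 FPKM.

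Among chaperones a small number of genes rose strongly. HSPA1B, an inducible HSP70 gene, measured 21.4, 21.8 and 22.2 FPKM in DMSO and 153, 159 and 149 FPKM in 8HQ/FAC, a log2 change of 2.76 ± 0.05 (SE). Its neighbour HSPA1A, a near-identical copy with which it can share reads, rose from 12.8 to 84.7 FPKM. The co-chaperone gene BAG3 rose from 17.2 to 57.6 FPKM and the small heat shock gene HSPB1 from 64.4 to 132 FPKM. These 4 were the only rises of at least 2-fold among 20 genes, of which 16 were higher and 2 lower, with a median of 0.59 relative to all genes (range 0.09 to 0.59). In the unfolded protein response, 5 of 20 genes were higher and 12 lower, with a median of 0.09 relative to all genes (range -0.28 to 0.09), and XBP1, the spliced factor of that response, fell from 205 to 74.8 FPKM. SYVN1 and SEL1L, of the ligase complex that clears misfolded proteins, fell from 23.4 to 8.78 FPKM and from 17.9 to 7.61 FPKM.

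A few growth arrest genes rose strongly. CDKN1A, the inhibitor p21 of cyclin-dependent kinases, measured 76.4, 73.8 and 75.3 FPKM in DMSO and 313, 356 and 348 FPKM in 8HQ/FAC, a log2 change of 2.16 ± 0.05 (SE) with an adjusted p of 9.2e-15. GADD45A rose from 38.7 to 146 FPKM and PMAIP1, the pro-apoptotic protein NOXA, rose from 1.39 to 10.8 FPKM. These are known p53 targets. Of the 22 p53 targets tested, 8 were higher and 11 lower, with a median of 0.09 relative to all genes (range 0.06 to 0.18). These 3 were the rises of at least 2-fold (13.6% against 2.22% of all genes) and stayed so under every scaling. Falls of at least 2-fold numbered 0 (against 10.1% of all genes). The p53 target ZMAT3 fell from 8.69 to 4.19 FPKM.

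MYC, the growth-promoting factor, fell from 46.9 to 16.4 FPKM (log2 change -1.46 ± 0.03 (SE)), and its antagonist MXD1 rose from 6.94 to 15.8 FPKM, while the 18 genes of the MYC network had 8 higher and 9 lower members and a median of 0.10 relative to all genes (range -0.06 to 0.10). Of 24 genes of G2 and M phase, 19 were lower, 8 of them at least 2-fold (33.3% against 10.1%), and 5 higher, with a median of -0.22 relative to all genes (range -0.48 to -0.22). Of 47 centromere and kinesin genes, 38 were lower, 17 at least 2-fold (36.2% against 10.1%), with a median of -0.52 relative to all genes (range -0.53 to -0.37). KIF11, the motor that separates spindle poles, measured 31, 30.8 and 29.1 FPKM in DMSO and 8.87, 9.69 and 10.1 FPKM in 8HQ/FAC. The proliferation antigen gene MKI67 fell from 45.2 to 14.6 FPKM and the checkpoint kinase gene TTK from 13.6 to 4.86 FPKM.

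Histone genes that passed the filter were mostly higher, from very low levels. Of 71 listed, 32 reached 1 FPKM in at least 3 of the 12 libraries. Of these 32, 27 were higher, 18 at least 2-fold (56.2% against 2.22%), and 1 was lower, HIST1H2BC, from 6.34 to 4.65 FPKM. Members such as HIST1H4C reached 1 FPKM in the 8HQ/FAC libraries only. The filter admitted these members through their rise, so the shares do not describe the whole list. HIST1H4C measured 0.27, 0.283 and 0.135 FPKM in DMSO and 12.1, 9.26 and 9.15 FPKM in 8HQ/FAC, a log2 change of 3.17 ± 0.13 (SE). HIST1H3C rose from 0.735 to 6.95 FPKM and HIST1H2AM from 0.815 to 5.67 FPKM. The median level in DMSO was 0.927 FPKM. Most of these transcripts lack a poly(A) tail, and how the libraries selected RNA is not given in the sources used here. They are also short copies that can share reads, and their median of 1.36 above all genes was 0.33 once the length trend was removed.

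Short transcripts of the ribosome and the respiratory chain were higher. Of 81 cytosolic ribosomal protein genes, 79 were higher, 25 of them at least 2-fold (30.9% against 2.22% of all genes). None of the 25 stayed at least 2-fold under every scaling. After quantile normalization the median was 0.27 above all genes, against 1.14 as deposited. Of 38 genes of complex I and its relatives, 36 were higher, with a median of 0.94 relative to all genes (range 0.47 to 0.94). NDUFA4L2, a HIF-induced paralogue, was at 0.0444, 0.0929 and 0.356 FPKM in DMSO and 3.45, 1.88 and 2.32 FPKM in 8HQ/FAC, and NDUFB4 rose from 27.3 to 56.1 FPKM. These 2 were the only members past 2-fold.

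Of 330 genes with a ZNF symbol, 254 were lower and 23 higher, with 32 falls (9.70%, close to the 10.1% of all genes) and 2 rises of at least 2-fold, with a median of -0.21 relative to all genes (range -0.21 to -0.11). ZNF830 fell from 12.5 to 2.73 FPKM, and ZNF296 rose from 2.09 to 9.41 FPKM. Of 44 ubiquitin-specific protease genes, 36 were lower, 9 at least 2-fold (20.5% against 10.1%), with a median of -0.32 relative to all genes (range -0.33 to -0.13). USP22, the protease of a chromatin-modifying complex, fell from 60.5 to 23.7 FPKM. Of 24 genes for RNA polymerase II and the control of elongation, 10 were higher and 12 lower, with a median of 0.14 relative to all genes (range 0.07 to 0.14), and the coactivator gene MED1 fell from 32 to 12.7 FPKM. SIN3A, the scaffold of a histone deacetylase complex, was among the 20 largest falls, from 13.9 to 2.59 FPKM.

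Several large changes lay in lists that moved in both directions. CXCL2, a neutrophil chemokine, rose from 1.41 to 11 FPKM, NFKBIA from 123 to 292 FPKM and TNF from 0.17 to 1.48 FPKM. These were the 3 rises of at least 2-fold among 18 NF-kB regulators and chemokines (16.7% against 2.22% of all genes). Of the 18 genes, 7 were higher and 10 lower, with a median of -0.06 relative to all genes (range -0.11 to 0.02). MYLIP, a ubiquitin ligase induced by sterols, measured 1.9, 1.85 and 1.92 FPKM in DMSO and 18.7, 21.4 and 19.3 FPKM in 8HQ/FAC in a list of 26 cholesterol genes with 7 higher, 14 lower and a median of 0.11 relative to all genes (range -0.05 to 0.11). ANKRD1, a target of the YAP coactivator, measured 34.1, 32.5 and 31.6 FPKM in DMSO and 5.7, 6.89 and 5.23 FPKM in 8HQ/FAC, and SRF, the serum response factor, fell from 36.6 to 14.4 FPKM. Of 21 actin, SRF and YAP target genes, 16 were lower and 4 higher, with a median of -0.02 relative to all genes (range -0.57 to -0.02).

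The remaining large falls covered varied functions. SOX9, a factor of biliary and progenitor cells, fell from 70.4 to 16 FPKM, HPS6, a subunit of a lysosome-related organelle complex, from 6.42 to 0.779 FPKM, PTGDR2, a prostaglandin receptor, from 12.1 to 1.89 FPKM, and ANGPTL1, an angiopoietin-like secreted protein, from 8.21 to 0.935 FPKM. TCIM fell from 26.2 to 4.52 FPKM, C15orf39 from 17.1 to 2.21 FPKM and KLHL14 from 11.8 to 1.84 FPKM. Of 199 solute carriers, 117 were lower and 41 higher, with a median of -0.11 relative to all genes (range -0.11 to 0.01) and 2-fold falls in 7.54%, under the 10.1% of all genes. The thiamine transporter gene SLC19A2, the vitamin C transporter gene SLC23A2 and the arginine transporter gene SLC7A1 fell from 28.8 to 7.86 FPKM, from 81.7 to 24.6 FPKM and from 34.7 to 10.7 FPKM. Among the largest rises, LCN15, a lipocalin, went from 1.66 to 21.5 FPKM and FAM46C, a non-canonical poly(A) polymerase, from 0.105 to 7.65 FPKM.

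Of the tested genes, 4 were listed at 0 in every DMSO library and reached at least 1 FPKM in every 8HQ/FAC library, and none did the reverse. FAM71A was at 5.03, 5.07 and 4.22 FPKM in 8HQ/FAC, FRG2 at 1.67, 1.54 and 2.4, FRG2B at 2.22, 1.92 and 1.97 and HIST1H2BB at 2.22, 1.52 and 2.47. FRG2 and FRG2B are near copies of each other and can share reads. In the FAC and 8HQ libraries each of the 4 genes stayed at 0.136 FPKM or less.

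**Figure D4:**
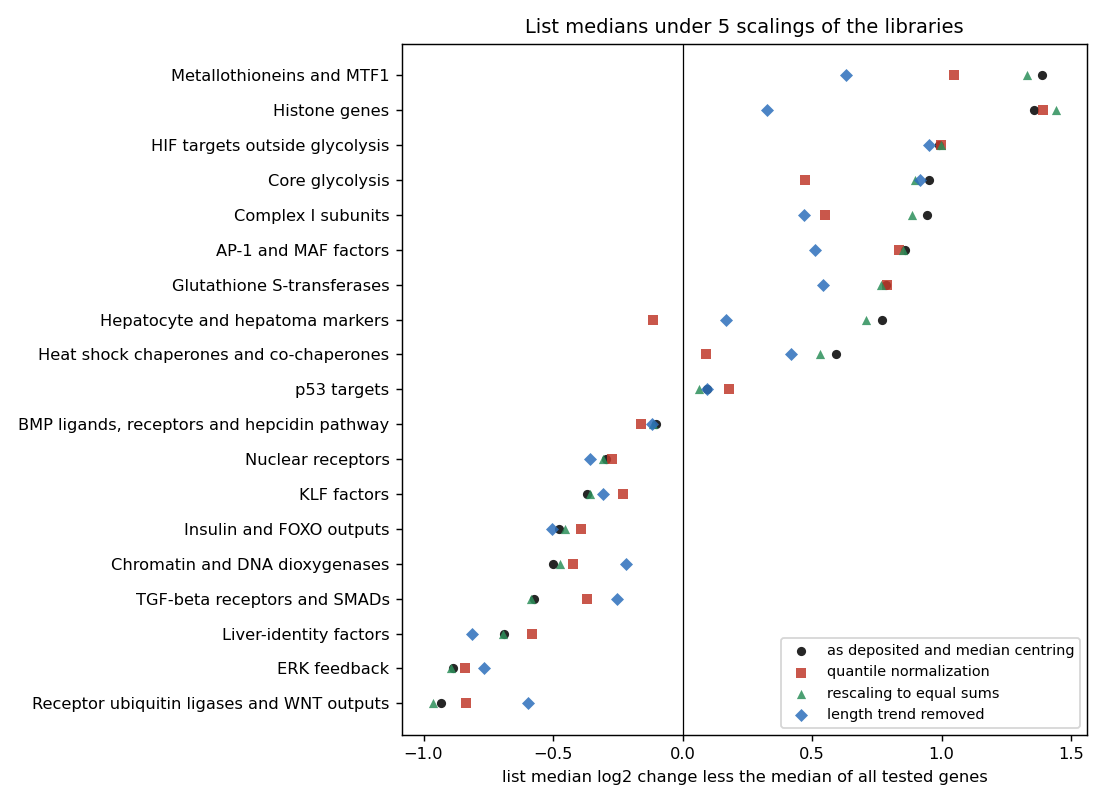
Median log2 change of the 19 lists in the plot of gene list members less the median of all tested genes (horizontal axis), under 5 scalings of the libraries; 2 of the scalings give the same value and share a symbol. The lists at both ends keep their side of 0, while the hepatocyte markers cross it after quantile normalization.

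TATA boxes were more common in the promoters of rising genes. The word TATAAA, searched on both strands from 250 bases before to 50 after the start, was in 5.40% of the 8950 promoters available for tested genes, in 22.8% (44 of 193) of those at least 2-fold higher and in 5.86% of those at least 2-fold lower. Counted only on the strand of the gene with its first base from -45 to -16, it was in 1.85% of all promoters, in 17.6% (34 of 193) of those at least 2-fold higher and in 1.55% of those at least 2-fold lower. Without the histone genes, whose promoters often hold the box, the share placed upstream among genes at least 2-fold higher was 13.6% (24 of 177). Among genes at least 2-fold higher under all 5 scalings, 27.3% held the word. The largest falls had it too, in 6 of the 15 available promoters of the 20 largest falls, against 6 of the 14 of the 20 largest rises. In the placed count, 4 of the 15 falls past 4-fold held it, against 7 of the 24 available promoters of rises past 4-fold. These shares describe the letters of an annotated window. They were not tested, because the search was made with the changes known.

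**Figure D5:**
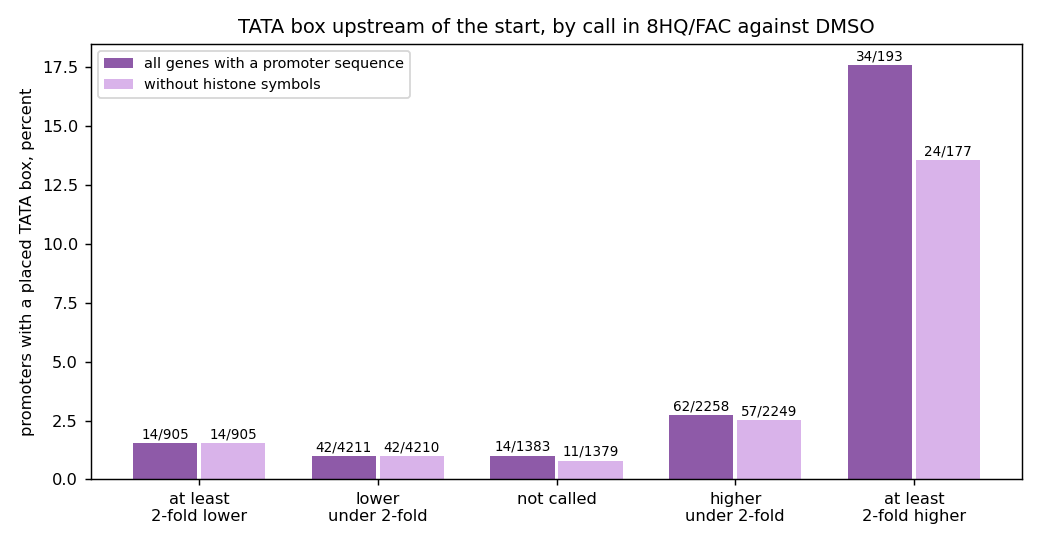
Share of promoters with a TATA box placed upstream of the start (vertical axis, percent) by the call of the gene in 8HQ/FAC against DMSO, with and without histone genes; the numbers above the bars give promoters with a box of promoters available. The share is 17.6% in genes at least 2-fold higher and 1.55% in genes at least 2-fold lower.

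Other promoter words did not separate the groups in this way. The hypoxia response core ACGTG, on either strand, was in 27.4% of all promoters, 29.5% of those at least 2-fold higher and 27.0% of those at least 2-fold lower. The AP-1 site TGANTCA was in 4.28%, 4.15% and 4.42%, and the cAMP response element TGACGTCA in 3.55%, 5.18% and 3.98%. The antioxidant response element TGACNNNGC was in 15.4%, 14.5% and 14.3%. The metal response core TGCNCNC was in 63.5%, 61.7% and 62.0%. Each word was searched in the same window.

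Each agent alone gave far fewer changes of 2-fold. Against DMSO, 8HQ alone gave 531 calls (4.91%), 270 higher (2.49%) and 261 lower (2.41%), of which 3 were at least 2-fold (0.0277%), all higher. FAC alone gave 5848 calls (54.0%), 2689 higher (24.8%) and 3159 lower (29.2%), of which 36 (0.333%) were at least 2-fold higher and 70 (0.647%) at least 2-fold lower, 106 in all (0.979%). The combination differed from 8HQ alone in 9139 genes (84.4%), 2900 higher (26.8%) and 6239 lower (57.6%), with 232 rises (2.14%) and 1162 falls (10.7%) of at least 2-fold, 1394 in all (12.9%). It differed from FAC alone in 8968 genes (82.9%), 2905 higher (26.8%) and 6063 lower (56.0%), with 145 rises (1.34%) and 765 falls (7.07%) of at least 2-fold, 910 in all (8.41%). All of these comparisons share libraries with the comparison against DMSO, so their values are set side by side only.

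The genes fell into visibly different patterns over the 4 groups. In DMSO, 8HQ, FAC and 8HQ/FAC in turn, FOS averaged 2.56, 2.55, 0.852 and 148 FPKM, and HAMP 3.19, 5.17, 0.686 and 31.1 FPKM. With FAC alone both were lower than with DMSO, with log2 changes of -0.96 (adjusted p = 3.5e-06) and -1.31 (adjusted p = 8.9e-07) by limma. Against FAC alone the combination raised them by 6.35 (adjusted p = 9.8e-16) and 4.26 (adjusted p = 2.6e-13) on the log2 scale. The early gene EGR1 behaved likewise, with 21.6, 18.1, 1.92 and 42.2 FPKM, as did ATF3 and JUNB. For CA9 the order was graded, with 1.31, 1.38, 19.9 and 37.6 FPKM. The falls of CYP1A1 and IGFBP1 were graded as well, with 88.5, 95.9, 24 and 3.12 FPKM and with 633, 536, 309 and 63.1 FPKM. For ANKRD1 FAC alone already gave nearly the level of the combination, with 6.82 and 5.94 FPKM. TGFBR2, SP5 and LGR4 were much closer to their DMSO level with either agent alone, TGFBR2 at 75.4 with 8HQ and 79.8 with FAC against 14.5 FPKM with both.

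The 3 genes at least 2-fold higher with 8HQ alone are all antioxidant or detoxifying genes, and each averaged less with the combination than with 8HQ. OSGIN1, an oxidative stress-induced growth inhibitor, averaged 37.8, 97.7, 28.7 and 39 FPKM in the same order of groups, SRXN1, sulfiredoxin, 63.1, 132, 48 and 82 FPKM, and AKR1B10, an aldo-keto reductase, 29.9, 63, 34.1 and 35.7 FPKM. TFRC also averaged less with the combination than with 8HQ, with 65.1, 66.1, 13.4 and 47.2 FPKM in that order of groups. Unlike the 3 genes, it stayed near its DMSO level with 8HQ alone and lay under that level with the combination.

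Markers of cells that a hepatoma culture should lack divided the libraries: most were above 0 in the DMSO and 8HQ libraries and many were at 0 in the FAC and 8HQ/FAC libraries. All 10 leukocyte and Kupffer cell markers were above 0 in each DMSO library and 3 of 10 in each 8HQ/FAC library, where PTPRC, CD3E, CD163, TYROBP, CSF1R, MARCO and S100A8 were listed at 0. With 8HQ alone all 10 were above 0 in each library, and with FAC alone 6, 3 and 3 were. The exception in level was LYZ, lysozyme, at 1143 to 1185 FPKM in DMSO and 1922 to 1947 FPKM in 8HQ/FAC, and the summed level without it was 32.3 to 35.0 FPKM in DMSO and 42.9 to 47.2 FPKM in 8HQ/FAC. The 4 red cell markers summed to 0.770, 1.96 and 15.4 FPKM in DMSO and to 0.901, 1.08 and 3.31 FPKM in 8HQ/FAC, overlapping ranges. Among them the hemoglobin gene HBB was at 0.421, 1.41 and 9.70 FPKM in DMSO and at 0 in 8HQ/FAC, while HBA1 was at 0.261, 0.182 and 1.13 FPKM in DMSO and 0.901, 1.08 and 3.20 FPKM in 8HQ/FAC. Of 6 fibroblast and stellate cell markers, COL1A2 and DCN were above 0 in each DMSO library and at 0 in each 8HQ/FAC library, and the list summed to 35.0 to 35.5 FPKM in DMSO and 51.2 to 54.4 FPKM in 8HQ/FAC, nearly all of it ACTA2. The 4 endothelial markers summed to 0.455 to 0.652 FPKM in DMSO and 0.296 to 0.354 FPKM in 8HQ/FAC. The part of these transcripts in the results was not tested. None of the 40 largest changes is a marker of these lists, but most of the markers could not be among them. Only 3 of 10 leukocyte, 2 of 4 red cell, 2 of 6 fibroblast and 0 of 4 endothelial markers passed the filter at 1 FPKM.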

How the data were processed

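The authors deposited 1 table of FPKM, with a value for each gene in each of the 12 libraries. The submitters' processing notes list Bowtie 0.12.2 together with mm8 and mm9, which are mouse builds and so cannot lie behind a human gene table. Which quantifier, strand setting and annotation were used is not given in the sources used here. FPKM carry no library totals, so depth is unknown and counting intervals were not computed.

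All later steps started from that table. Of 20030 GeneIDs, 19741 matched the RefSeq gene table, and 27 symbols that had become dates were restored. No libraries were identical. Genes reaching 1 FPKM in 3 or more libraries were kept, and a pseudocount of 1 was added before taking log2. Group means were estimated jointly from the 12 libraries (limma 3.58.1 under R 4.3.3, variance trend on), and two-sided p-values were Benjamini-Hochberg adjusted over 10823 genes within each of 5 comparisons. The layout had allowed for counts, and its FPKM form was used. The procedure was tested on simulated data, where nearly all changed genes were recovered and the share of false calls came out slightly above the level aimed for. Python 3.11.15, pandas 2.3.3, numpy 2.4.6 and matplotlib 3.10.9 made tables and plots.

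The members and lists were chosen with earlier results of these data known. Genes were named by rule: the 20 largest rises and 20 largest falls among called genes with at least 1 FPKM in the higher group, no overlap and the same sign under 4 scalings; HAMP, HMOX1, CYP1A1, TFRC, FTH1, FTL and SLC40A1; up to 4 members with the largest called change in each list described; all genes behind counts up to 5; and genes at 0 in 1 group. Alternatives were the 4 scalings, leaving the filter out or raising it to 5 FPKM, a pseudocount of 0.1, no variance trend, only the groups compared, a replicate block and leaving out each library. Promoters were RefSeq sequences of GRCh38.p14, available for 8950 tested genes. Some genes that this rule names are not reported here.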

Additional observations from a re-analysis of the deposited data

How the results depend on the processing

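Scaling decided the counts and depth is unknown. Under median centring, 5780 genes were higher and 3354 lower, 937 and 245 of them at least 2-fold; under rescaling to equal sums, 1479 were higher, with 124 rises and 2190 falls of at least 2-fold. Falls of at least 2-fold numbered 377 after quantile normalization, 345 after the length correction and 1838 at a pseudocount of 0.1. Genes differing at least 2-fold from 8HQ alone numbered 701 (quantile), 2394 (equal sums), 653 (length) and 2240 (pseudocount 0.1), and from FAC alone 505, 1751, 466 and 1658 in that order. Among genes named by the rule, the direction reversed for FTH1 (log2 change -0.084 after quantile normalization) and for TIPARP (0.23 after quantile normalization, 0.20 after median centring, 0.11 after the length correction), and of the genes looked up afterwards for ID1 (0.18 after median centring) and CDH1 (0.32 after quantile normalization, 0.29 after median centring, 0.28 after the length correction); the cause was not tested. Of 66 lists, 52 kept the sign of their median relative to all genes under 4 scalings. Leaving out 1 library at a time gave 2857 to 2907 higher and 5993 to 6041 lower genes, 233 to 251 rises and 1042 to 1158 falls of at least 2-fold, 1317 to 1466 genes against 8HQ, 874 to 972 against FAC and a HAMP log2 change of 2.80 to 3.08. With the replicate number as a block, the counts were 2971 higher and 6136 lower, 240 and 1095 at least 2-fold; deviations of same-numbered DMSO and 8HQ/FAC libraries correlated at 0.048, -0.033 and 0.002 across genes, so the numbers were not taken as pairs. The genes without histones, the placed box, the length groups and the genes past 2-fold under all scalings, in the TATA shares, were chosen after seeing the data.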
